A study of Mus musculus with 7 samples.

Results

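The zinc finger genes described here are the protein-coding mouse genes whose symbol is Zfp followed by digits alone and which lie on chromosomes 4, 7, 13 and 17. There were 190 such genes among 21631 protein-coding genes of chromosomes 1 to 19 and X, and 177 further Zfp genes lay on the other chromosomes. Of the 190, 142 had another such gene within 100 kb and are called clustered, and 48 had none and are called single. The clustered genes formed 28 clusters, of which 3 were on chromosome 4, 14 on chromosome 7, 4 on chromosome 13 and 7 on chromosome 17. The widest gap inside the limit was 87.5 kb, between Zfp72 and Zfp825, and the narrowest outside it was 104.4 kb, between Zfp715 and Zfp936.

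The cells were leukaemia cells of BALB/c mouse bone marrow that carry mutant CSF3R and mutant CEBPA from retroviruses, in both groups. One group was treated with the LSD1 inhibitor GSK-LSD1 at 4 nM for 48 h, and the other with the solvent DMSO for the same time. LSD1 removes methyl groups from lysine 4 of histone H3. The marks H3K4me1, H3K4me3 and H3K27Ac were assayed by ChIP-seq, with 1 library per mark and treatment (6 libraries) and 1 input library. The deposited files hold 1 segmentation of the genome per treatment, in which each 200 bp bin carries 1 of 6 states, E1 to E6. With 1 segmentation per treatment there is no replicate check, no p-value was computed, and a difference between treatments cannot be told apart from a difference between libraries in depth or precipitation. Cells were assayed in bulk, so fewer cells with a mark and less mark per cell cannot be told apart either. The labels do not say whether the cells were 1 clone or came from a pool of animals.

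Most mouse Zfp genes encode proteins with tandem C2H2 zinc fingers, and many of those in clusters also carry a KRAB domain. KRAB zinc finger proteins bind DNA, often in retrotransposons, and recruit the corepressor TRIM28 and the H3K9 methyltransferase SETDB1. The family has expanded by tandem duplication, so that neighbours in a cluster resemble each other, and the gene bodies of such clusters are known in human cells for carrying H3K9me3, which was not measured here. Not every symbol of this form is such a gene: Zfp36 encodes tristetraprolin, a factor of mRNA decay with fingers of the CCCH type.

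States are referred to by number because the labels and files do not name the marks behind them. E3 covered most of the genome (70.1% of bins in GSK-LSD1 and 73.3% in DMSO) and is called background, and every other state is called marked. At the ends of all protein-coding genes, E5 was at 10.1 and 13.3 times its genome share in GSK-LSD1 and DMSO, and E6 at 7.85 and 9.45 times. No other state exceeded 2.86 times, so E5 and E6 are called TSS-type states. Bins in E3, E5 and E6 in DMSO overlapped most, relative to genome shares, with the same number in GSK-LSD1. Bins in E1, E2 and E4 did not: E4 of DMSO, for example, overlapped E5 of GSK-LSD1 at 12.4 times the level given by the shares and E4 at 11.9 times. A comparison by single number, above all for E1, E2 and E4, is therefore weaker than one by role. Neither labels nor files say whether both treatments were fitted in 1 model. A state number therefore need not stand for the same marks under both treatments, which bears on every E5 to E6 share below. E6 covered 9.58 times as much of the genome in GSK-LSD1. Over the genome TSS-type states were 1.65 times as extensive in GSK-LSD1 as in DMSO, and this general gain is the background for all values below. The labelled cell type was checked against marker genes. Of 12 myeloid and haematopoietic markers, 10 had such a state at an end in GSK-LSD1 and 8 in DMSO, while Csf3r and Elane had none. Of 8 markers of other cells, 0 had one in GSK-LSD1 and 1, Neurod1, in DMSO.

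Promoter windows of 7 clustered genes are shown because their starts illustrate the fates described below. Zfp983 and Zfp994 on chromosome 17 were E5 in GSK-LSD1 and E4 in DMSO. Zfp74 was E6 in GSK-LSD1 and E5 in DMSO, whereas Zfp82, of the same chromosome 7 cluster, was E5 in both. On chromosome 4, Zfp933 was E5 in both, Zfp993 was E3 in GSK-LSD1 and E2 in DMSO, and Zfp988 was E3 in both. Each line gives 250 bases before to 50 bases after a start annotated by RefSeq (GRCm38.p6), 5′ to 3′ on the gene's strand, with CG dinucleotides in capitals.
Zfp983 (chr17:21650361-21650660, plus strand): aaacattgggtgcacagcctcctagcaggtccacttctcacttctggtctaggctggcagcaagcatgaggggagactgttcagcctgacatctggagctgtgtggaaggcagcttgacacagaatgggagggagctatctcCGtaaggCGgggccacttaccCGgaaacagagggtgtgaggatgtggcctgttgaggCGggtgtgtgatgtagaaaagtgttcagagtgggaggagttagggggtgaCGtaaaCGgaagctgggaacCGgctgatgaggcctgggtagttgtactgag
Zfp994 (chr17:22225565-22225864, minus strand): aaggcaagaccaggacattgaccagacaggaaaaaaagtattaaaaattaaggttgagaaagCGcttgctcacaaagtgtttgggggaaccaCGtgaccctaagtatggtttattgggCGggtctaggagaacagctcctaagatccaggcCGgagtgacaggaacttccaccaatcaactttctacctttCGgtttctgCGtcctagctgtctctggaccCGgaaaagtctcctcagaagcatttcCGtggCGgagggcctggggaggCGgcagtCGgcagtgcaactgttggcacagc
Zfp74 (chr7:29954016-29954315, minus strand): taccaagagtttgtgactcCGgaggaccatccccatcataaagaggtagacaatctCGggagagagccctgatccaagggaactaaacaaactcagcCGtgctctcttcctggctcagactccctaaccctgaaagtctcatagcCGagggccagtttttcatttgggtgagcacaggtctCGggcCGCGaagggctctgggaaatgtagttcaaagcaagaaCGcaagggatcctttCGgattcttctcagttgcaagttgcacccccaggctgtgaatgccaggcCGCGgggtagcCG
Zfp82 (chr7:30072774-30073073, minus strand): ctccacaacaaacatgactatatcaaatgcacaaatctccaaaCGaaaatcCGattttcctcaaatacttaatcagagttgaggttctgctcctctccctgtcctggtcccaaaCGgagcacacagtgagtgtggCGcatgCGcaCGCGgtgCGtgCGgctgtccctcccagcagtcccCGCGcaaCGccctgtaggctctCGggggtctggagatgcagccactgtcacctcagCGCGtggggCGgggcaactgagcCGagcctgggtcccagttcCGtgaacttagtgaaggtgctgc
Zfp933 (chr4:147848369-147848668, minus strand): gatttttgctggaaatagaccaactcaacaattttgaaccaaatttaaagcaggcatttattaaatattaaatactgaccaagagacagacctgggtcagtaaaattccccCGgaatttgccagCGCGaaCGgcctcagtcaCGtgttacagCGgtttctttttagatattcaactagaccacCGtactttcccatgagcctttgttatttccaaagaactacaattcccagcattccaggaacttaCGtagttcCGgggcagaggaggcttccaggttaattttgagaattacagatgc
Zfp993 (chr4:146512599-146512898, plus strand): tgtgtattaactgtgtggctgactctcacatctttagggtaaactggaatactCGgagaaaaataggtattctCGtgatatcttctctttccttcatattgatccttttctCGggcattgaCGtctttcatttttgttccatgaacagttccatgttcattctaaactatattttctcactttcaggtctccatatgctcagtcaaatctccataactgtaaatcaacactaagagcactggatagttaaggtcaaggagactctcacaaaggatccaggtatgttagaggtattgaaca
Zfp988 (chr4:147305354-147305653, plus strand): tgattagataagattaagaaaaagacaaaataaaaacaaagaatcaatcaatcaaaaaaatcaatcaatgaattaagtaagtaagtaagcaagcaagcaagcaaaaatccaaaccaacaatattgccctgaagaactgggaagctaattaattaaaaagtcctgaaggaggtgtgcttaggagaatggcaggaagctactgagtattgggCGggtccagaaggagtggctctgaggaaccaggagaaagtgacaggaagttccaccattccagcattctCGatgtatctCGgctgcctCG

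The windows held 7 CG dinucleotides in Zfp983, 11 in Zfp994, 12 in Zfp74, 18 in Zfp82, 9 in Zfp933 and 4 each in Zfp993 and Zfp988. Windows within 1 kb of the annotated gene start were found for 104 of 142 clustered genes, 35 of 48 single genes and 15534 protein-coding genes. The median number of CG dinucleotides was 11 in clustered genes, 17 in single genes and 14 in all protein-coding genes. Among clustered genes the median was 14.5 for the 24 starts that were E6 in GSK-LSD1 and E5 in DMSO, 11 for the 57 that were E5 in both and 5 for the 9 that were E3 in both. In all protein-coding genes the same 3 medians were 23, 22 and 2, so clustered TSS-type starts held fewer CG dinucleotides than other starts in the same states. The motif CCGGAAG, on either strand and overlapping a CG by its own letters, was in 21 of 104 clustered windows (20.2%), in 7 of 35 single windows (20.0%) and in 12.2% of all windows of this length. The letters TATAAA, on either strand, were in 5 of 104 clustered windows (4.81%), in 3 of 35 single windows (8.57%) and in 13.8% of all windows. That last share includes starts in E3 under both treatments, at 27.4%. Starts that were E5 in both held TATAAA in 4 of 57 clustered windows (7.02%) and in 5.92% of all windows, which lie close to each other. CCGGAAG was in 19.3% of clustered and 14.7% of all windows that were E5 in both, and in 25% and 25.2% of those that were E6 in GSK-LSD1 and E5 in DMSO. A match is a description of the letters and not evidence of binding.

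At their ends, most clustered zinc finger genes carried a TSS-type state under both treatments. A TSS-type end was found in 106 of 142 clustered genes in GSK-LSD1 (74.6%, Wilson 95% interval 66.9 to 81.1) and in 99 in DMSO (69.7%, 61.7 to 76.7). For single genes it was 36 of 48 in GSK-LSD1 (75%, 61.2 to 85.1) and 35 in DMSO (72.9%, 59.0 to 83.4). Clustered and single genes thus differed by less than their intervals, which cover counting error only and treat neighbouring genes as independent. All protein-coding genes were lower, at 54.8% in GSK-LSD1 and 51.7% in DMSO. Another tandem family, the 287 olfactory receptor genes of chromosome 2, had 3 such genes in GSK-LSD1 and 1 in DMSO.

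Chromosome 4 stood apart from the other chromosomes. Only 3 of its 14 clustered genes had a TSS-type end, in GSK-LSD1 and in DMSO alike (21.4%, 7.57 to 47.6), namely Zfp978, Zfp982 and Zfp933. Its 13 single genes had 7 in both treatments (53.8%). The clustered genes of chromosomes 7, 13 and 17 were at 79.5%, 78.3% and 84.4% in GSK-LSD1 and at 74.0%, 73.9% and 78.1% in DMSO.

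Few genes had a TSS-type end under 1 treatment only. There were 8 clustered genes with one in GSK-LSD1 alone (5.63%, against 4.11% of all protein-coding genes), 1 in DMSO alone (0.704%, against 0.985%), 98 in both and 35 in neither. Of the single genes, 1 had one in GSK-LSD1 alone, 0 in DMSO alone, 35 in both and 12 in neither. These shares are close to the background. The 8 genes were Zfp787, Zfp575, Zfp747, Zfp764 and Zfp688 on chromosome 7, Zfp458 on chromosome 13, and Zfp983 and Zfp994 on chromosome 17, and the single gene was Zfp941. In each of the 9 the end that was TSS-type in GSK-LSD1 had been E4 in DMSO, so none arose from background. Zfp787 was E6 in GSK-LSD1 at its start and lay in a run of TSS-type bins of 9.8 kb. Zfp688 was E5 at its start in a run of 9.6 kb, whereas the runs at Zfp983, Zfp994, Zfp458, Zfp747, Zfp764 and Zfp941 measured 0.8, 1.4, 1.4, 1.6, 3.0 and 1.8 kb in GSK-LSD1. Zfp108 on chromosome 7 was the gene with the opposite pattern, with E4 at its start in GSK-LSD1 and E5 in DMSO. Over all clustered ends that were E4 in DMSO, 11 of 28 were E5 and 2 were E6 in GSK-LSD1, 10 remained E4 and 5 were in E1, E2 or E3.

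Clustered genes differed from all protein-coding genes in which TSS-type state they carried in GSK-LSD1. Of 100 clustered gene ends that were E5 in DMSO, 29 were E6 in GSK-LSD1 (29.0%, Wilson 95% interval 21.0 to 38.5), 69 stayed E5 and 2 were E4. Of 33 single ends, 17 were E6 (51.5%, 35.2 to 67.5) and 16 stayed E5. Over all protein-coding genes, 5594 of 11421 such ends were E6, a background of 49.0%. Counted once per bin, since neighbouring genes can share a bin, 28 of 97 clustered ends were E6 (28.9%). Zfp genes on the other chromosomes, which the rule did not include, gave 14 of 49 clustered ends (28.6%, 17.8 to 42.4) and 34 of 69 single ends (49.3%, 37.8 to 60.8). The 34 other protein-coding genes that overlap the 28 clusters had 21 such ends, and 15 of these were E6 in GSK-LSD1 (71.4%, 50.04 to 86.2).

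**Figure D1:**
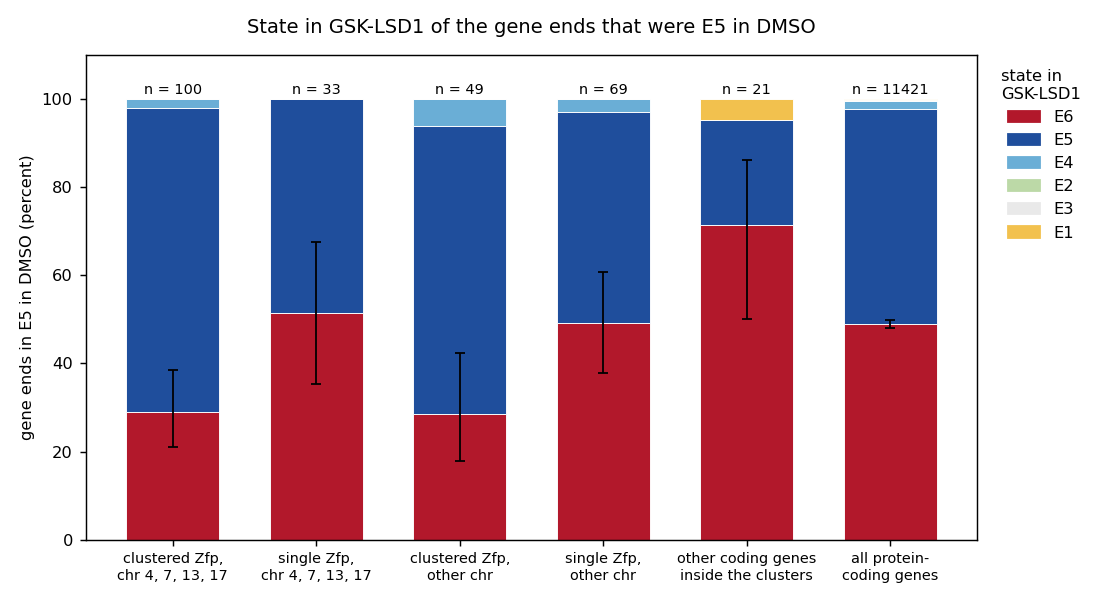
Share of gene ends (vertical axis, percent) in each state in GSK-LSD1, among ends that were E5 in DMSO, for 6 sets of genes; n is the number of ends and the black bars are Wilson 95% intervals of the E6 share. E6 reaches 29.0% in clustered Zfp genes and 51.5% in single ones, against 49.0% of all protein-coding genes.

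Within the 4 chromosomes, the gap between clustered and single genes rested on chromosome 7. There, 19 of 54 clustered ends (35.2%) and 11 of 12 single ends (91.7%) were E6 in GSK-LSD1. Without chromosome 7 the counts were 10 of 46 clustered ends (21.7%, 12.3 to 35.6) and 6 of 21 single ends (28.6%, 13.8 to 49.96), and their intervals overlapped widely. By chromosome, clustered ends that were E6 numbered 0 of 3 on chromosome 4, 4 of 17 on chromosome 13 and 6 of 26 on chromosome 17, each a smaller share than the 47.4%, 48.1% and 46.8% of all protein-coding genes there, as was 35.2% against 54.7% on chromosome 7. Single ends numbered 2 of 6, 2 of 7 and 2 of 8 on these chromosomes. The low share of clustered genes against all genes was thus present on each of the 4 chromosomes, on chromosome 4 from 3 ends. The contrast with single genes was large on chromosome 7 and small on the other 3. It was seen again in the Zfp genes of the other chromosomes given above, at 28.6% of clustered and 49.3% of single ends, with intervals that overlap.

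The E6 share also moved with how wide the start domain was in DMSO. Domain width is the unbroken run of E5 and E6 bins at the gene start, and strand was known for 126 clustered and 40 single genes. In the 85 clustered starts that were TSS-type under both treatments, the median width was 3.8 kb in GSK-LSD1 (quartiles 2.6 to 5.2) and 2.4 kb in DMSO (1.6 to 3.6). It was larger in GSK-LSD1 at 72 of these starts, smaller at 6 and equal at 7. Single starts were wider, at a median of 5.3 kb in GSK-LSD1 and 3.3 kb in DMSO over 30 starts, and so were all protein-coding starts, at 5.2 and 3.6 kb. Among clustered starts that were E5 in DMSO, 5 of 32 with a DMSO width up to 2 kb were E6 in GSK-LSD1 (15.6%), 16 of 46 from 2.2 to 4 kb (34.8%) and 5 of 8 over 4 kb (62.5%). All protein-coding starts gave 13%, 43.3% and 78.2% in the same bands. The intervals of the clustered shares were 6.86 to 31.8, 22.7 to 49.2 and 30.6 to 86.3, and each held the share of all genes. The lower overall E6 share and the narrower domains cannot be told apart here.

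**Figure D2:**
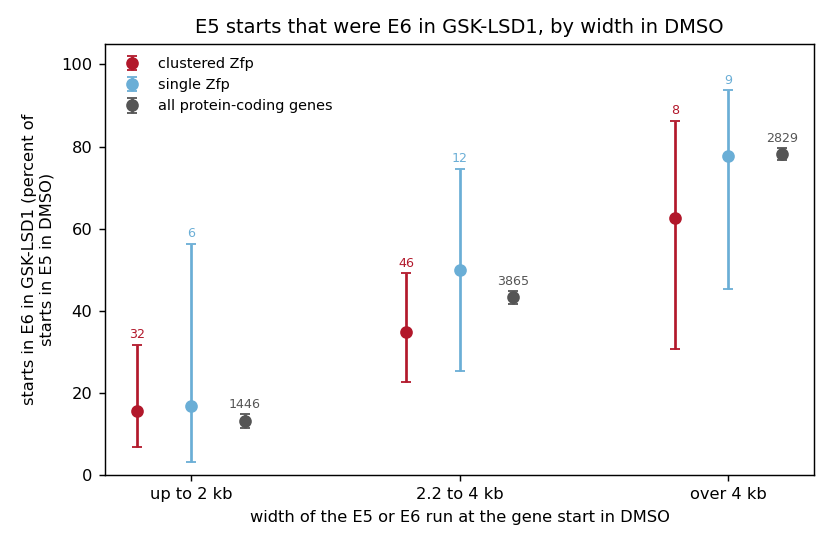
Share of starts that were E6 in GSK-LSD1 among starts that were E5 in DMSO (vertical axis, percent), by the width of the TSS-type run in DMSO (horizontal axis); points are shares, bars Wilson 95% intervals, and the small figures the number of starts. In clustered Zfp genes the share is 15.6% in the narrowest band and 62.5% in the widest, and in all protein-coding genes 13% and 78.2%.

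Inside the genes, E4 and the TSS-type states covered more of the clustered genes in GSK-LSD1, and E2 covered less. The interior is taken as the bins more than 1 kb from both gene ends, 3.21 Mb in 142 clustered genes. E4 made up 10.3% of it in GSK-LSD1 and 7.68% in DMSO, E5 6.89% and 4.89%, E6 1.61% and 0.0311%, and E1 0.840% and 0.230%. E2 made up 23.6% in GSK-LSD1 and 34.9% in DMSO. In all protein-coding genes E4 and E5 lay the other way, at 3.07% in GSK-LSD1 and 4.21% in DMSO for E4 and at 2.13% and 2.71% for E5. There the gain was in E1, 7.83% in GSK-LSD1 and 0.885% in DMSO, and in E6, 3.03% and 0.303%. Single Zfp genes lay the same way as all genes, with E4 at 4.61% in GSK-LSD1 and 5.91% in DMSO. Their E5 was at 2.87% and 3.45% and their E1 at 5.90% and 0.749%. For E4 and E5 this direction rested on chromosome 7. Without it, single genes had E4 at 6.56% in GSK-LSD1 and 6.36% in DMSO, and E5 at 4.08% and 3.34%. Single Zfp genes of the other chromosomes lay as all genes did, with E4 at 5.98% and 6.54% and E5 at 3.75% and 4.14%. The pattern of the clustered genes was not particular to them. Clustered Zfp genes of the other chromosomes had E4 at 13.8% in GSK-LSD1 and 11.4% in DMSO, E5 at 7.34% and 5.75% and E2 at 42.2% and 44.4%. The other protein-coding genes inside the 28 clusters had E4 at 10.4% in GSK-LSD1 and 9.46% in DMSO. Their E5 was at 6.89% and 5.50% and their E2 at 36.6% and 46.7%. This set includes genes with symbols beginning with Zfp, Zscan or Rsl. The 24 genes with an interior and other symbols had E4 at 7.32% in GSK-LSD1 and 7.44% in DMSO. Their E5 was at 4.70% and 4.58% and their E2 at 35.8% and 40.7%, so there E4 and E5 hardly differed.

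Bin by bin, the E2 of DMSO inside clustered genes was E4 in GSK-LSD1 more often, and E1 less often, than in all protein-coding genes. Of 1122.6 kb in E2 in DMSO, 15.9% was E4 in GSK-LSD1, 28.6% was E3, 1.39% was E1 and 52.5% stayed E2. The E3 part came largely from chromosome 4, without which 14.6% was E3 and 20.0% was E4. In all protein-coding genes 4.83% of E2 was E4, 12.6% was E3 and 18.1% was E1. Of the 246.8 kb in E4 in DMSO inside clustered genes, 35.2% was E5 in GSK-LSD1, against 19.1% in all protein-coding genes. Of the 157 kb in E5 in DMSO, 26.0% was E6 in GSK-LSD1, against 53.4% in all protein-coding genes. Clustered Zfp genes of the other chromosomes lay close to these values, with 18.04% of E2 in E4, 30.5% of E4 in E5 and 34.8% of E5 in E6. So did the other protein-coding genes inside the clusters, symbols beginning with Zfp, Zscan or Rsl included, with 13.1%, 31.4% and 31.7%.

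Counted per gene, 102 of 142 clustered genes had more TSS-type interior in GSK-LSD1 (71.8%, against 54.1% of all protein-coding genes), and 3 had less. The share was 59.6% in single genes, and 67.1% in clustered and 67.3% in single Zfp genes of the other chromosomes. TSS-type ends in GSK-LSD1 were also more frequent in clustered than in all protein-coding genes, at 74.6% against 54.8%, and were at 75% in single genes. Whether the interior shares follow from this was not tested. More E4 was found in 69 clustered genes (48.6%, against 28.3%) and less in 48. Single genes with an interior had more E4 in 14 and less in 23 of 47, but more in 11 and less in 12 without chromosome 7. On the other chromosomes the contrast was small. Clustered Zfp genes there had more E4 in 29 and less in 27 of 70, and single ones in 42 and 45 of 107. The largest TSS-type interiors among clustered genes in GSK-LSD1 were those of Zfp764 (9.4 kb in GSK-LSD1, 4.0 kb in DMSO), Zfp790 (8.8 and 4.6 kb) and Zfp787 (8.8 and 5.8 kb). Zfp771 and Zfp180 followed with 6.6 kb each in GSK-LSD1, and with 5.2 and 2.2 kb in DMSO. Zfp764 also had 15.6 kb of E4 in GSK-LSD1 and 9.2 kb in DMSO. Among single genes Zfp710 had 21.4 kb in GSK-LSD1 and 11.4 kb in DMSO, Zfp592 10.6 and 3.6 kb, Zfp523 6.2 and 2.2 kb, and Zfp346, which encodes a zinc finger protein that binds double-stranded RNA, 4.8 and 2.2 kb. All 9 of these genes had more in GSK-LSD1, a direction that their choice by the GSK-LSD1 value favours.

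Marked states as a whole covered 43.2% of the clustered interior in GSK-LSD1 and 47.8% in DMSO, and this direction came from chromosome 4. Without chromosome 4 the values were 63.7% in GSK-LSD1 and 61.0% in DMSO. On chromosome 4 they were 7.37% in GSK-LSD1 and 24.5% in DMSO, on chromosome 7 75.6% and 69.9%, on chromosome 13 57.7% and 51.5%, and on chromosome 17 50.4% and 54.5%. With E2 also taken as background the clustered values were 19.6% in GSK-LSD1 and 12.8% in DMSO, the opposite direction. Single genes had 36.3% in GSK-LSD1 and 37.5% in DMSO, and all protein-coding genes 45.4% and 41.1%. Bins of overlapping genes count for each gene, and long genes weigh most. On chromosome 4 the 1.17 Mb of clustered interior lay in 14 genes, among them a gene of 478.6 kb and a gene of 267.1 kb. The median clustered gene was 100% marked under both treatments, and 77 genes in GSK-LSD1 and 80 in DMSO were marked throughout.

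**Figure D3:**
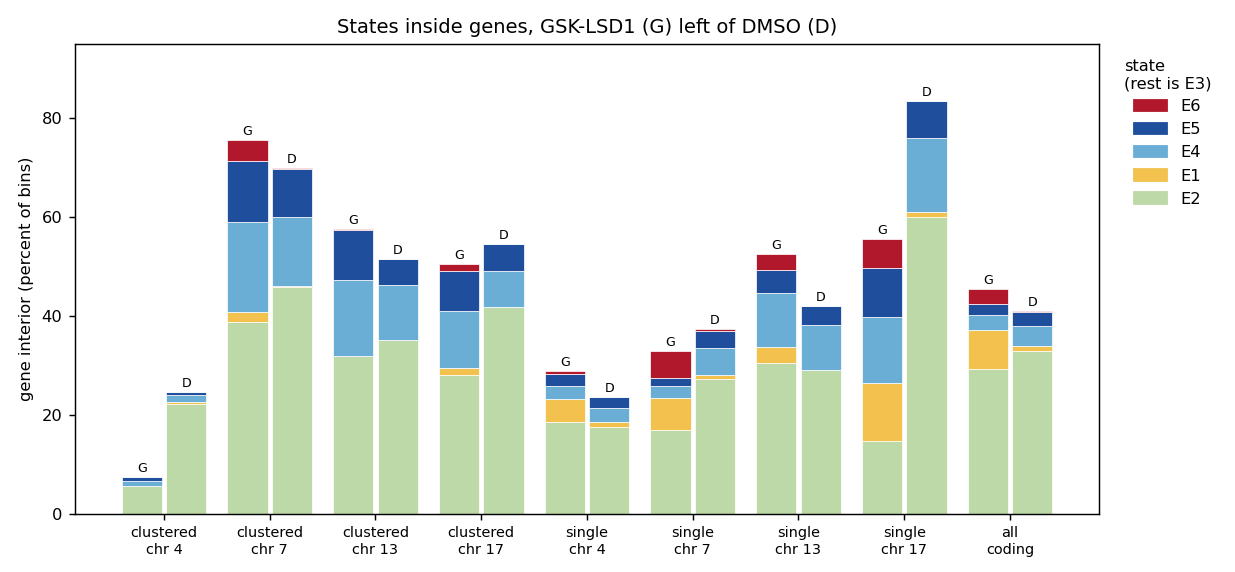
Share of gene interiors (vertical axis, percent of bins) in each marked state, for clustered and single Zfp genes of each chromosome and for all protein-coding genes; each pair has GSK-LSD1 (G) on the left and DMSO (D) on the right. Clustered genes of chromosome 4 reach 7.37% in GSK-LSD1 and 24.5% in DMSO, and on chromosomes 7, 13 and 17 E4 and E5 are larger in GSK-LSD1.

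Some genes differed over a large part of their length. The marked share of the interior was at least 10 percentage points larger in GSK-LSD1 in 25 clustered genes (17.6%, against 14.5% of all protein-coding genes) and at least 10 points smaller in 22 (15.5%, against 8.97%). On chromosome 4, 6 of 14 clustered genes were smaller by that much and 0 larger. On chromosome 13, 8 of 23 were larger and 4 smaller. Among the 190 genes the largest decreases in marked interior were at Zfp978 (8.2 kb marked in GSK-LSD1, 56.2 kb in DMSO), Zfp984 (4.4 and 47.0 kb) and Zfp936 (0 and 39.6 kb). Zfp981 had 0 kb in GSK-LSD1 and 35.2 kb in DMSO. Zfp318, a single gene whose product is needed for IgD expression in B cells, had 4.2 kb in GSK-LSD1 and 35.2 kb in DMSO. Zfp942 had 3.8 and 33.4 kb, Zfp993 0 and 28.4 kb, and Zfp992 0 and 18.2 kb. Of these 8 genes 5 lie on chromosome 4.

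The largest increases lay on all chromosomes but 17. Zfp292, a single gene of chromosome 4, was marked over its whole interior of 77.6 kb in GSK-LSD1 and over 41.4 kb in DMSO. Zfp346 was marked over 27.6 and 9.8 kb. The other 6 were clustered genes of chromosomes 7 and 13. On chromosome 7, Zfp974 had 19.4 kb marked in GSK-LSD1 and 2.2 kb in DMSO, Zfp74 19.2 and 2.8 kb, and Zfp82 14.6 and 2.4 kb. On chromosome 13, Zfp65 had 21.6 kb in GSK-LSD1 and 6.4 kb in DMSO, Zfp708 19.8 and 6.8 kb, and Zfp825 13.6 and 0.8 kb. ZFP708 is a KRAB zinc finger protein that binds a retrotransposon family. In the 6 clustered genes E2 was the most extensive marked state in GSK-LSD1, and E3 covered most of the interior in DMSO. At 7 of the 8 genes, all but Zfp708, the start carried a TSS-type state under both treatments.

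Seen as whole spans, the 28 clusters had 623 kb in TSS-type states in GSK-LSD1 and 408.8 kb in DMSO. The ratio of 1.52 is near the 1.65 of the genome, and the area was larger in GSK-LSD1 in 23 clusters and smaller in 1. E4 covered 648.8 kb in GSK-LSD1 and 521.2 kb in DMSO, a ratio of 1.24 against 0.814 over the genome, and was larger in 17 clusters and smaller in 8. E5 had a ratio of 1.13 against 0.774. E6 covered 167.6 kb in GSK-LSD1 and 6.6 kb in DMSO, a ratio of 25.4 against 9.58, from a small area in DMSO. E1, which was 9.78 times as extensive in GSK-LSD1 over the genome, covered 64.6 kb in GSK-LSD1 and 30.6 kb in DMSO, a ratio of 2.11. Most of the E1 in DMSO lay on chromosome 4. In the 25 clusters of the other 3 chromosomes E1 covered 64.6 kb in GSK-LSD1 and 2.8 kb in DMSO. That ratio of 23.1 is above that of the genome but starts from a small area, as 23 of these clusters had no E1 in DMSO. Inside the clustered genes of these chromosomes E1 was scarce in GSK-LSD1 too, at 1.32% against 7.83% in all protein-coding genes. E2 covered 1649 kb in GSK-LSD1 and 2271.2 kb in DMSO.

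**Figure D4:**
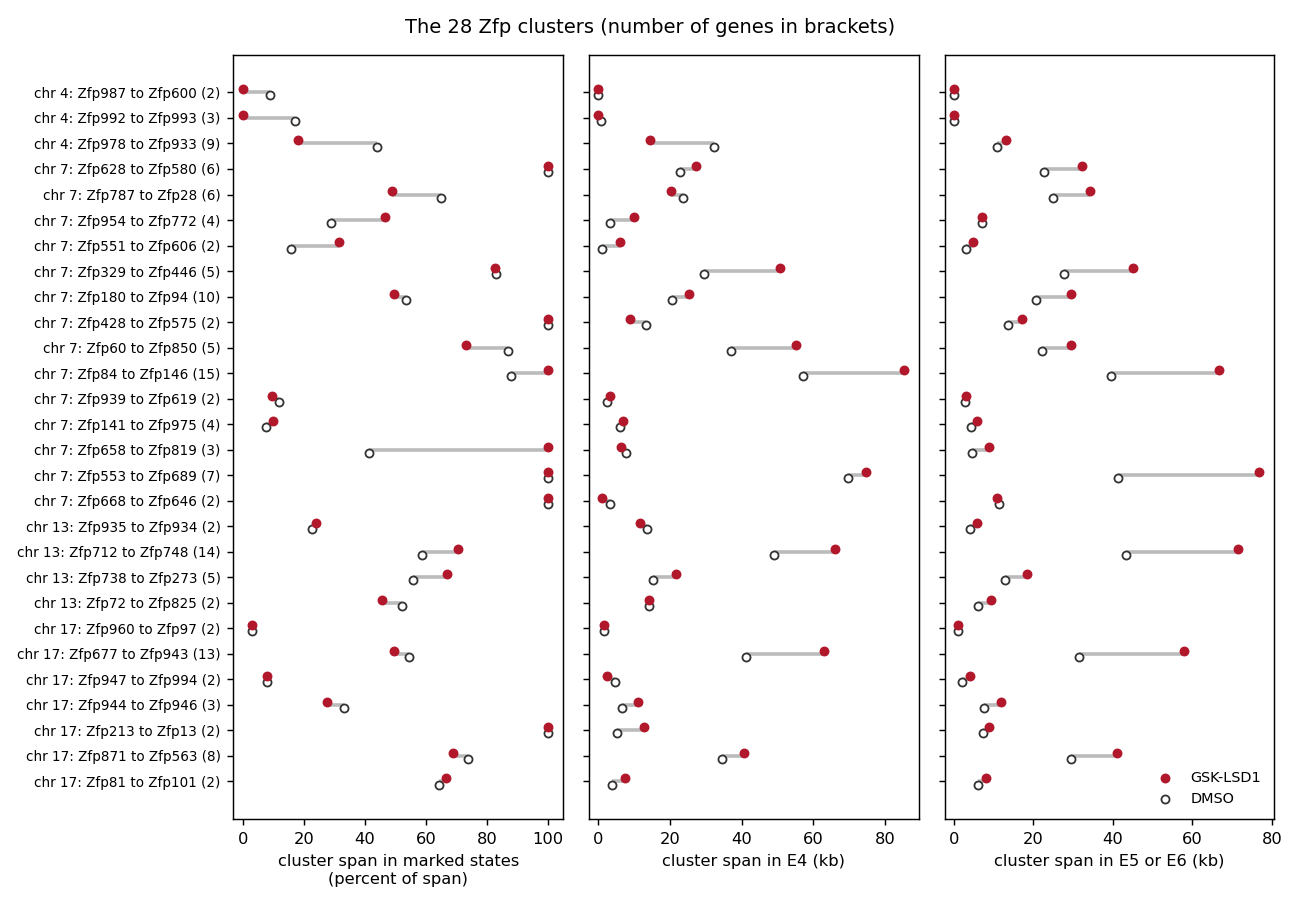
The 28 clusters of Zfp genes (rows, with the first and last gene and the number of genes) by percent of span in marked states, kb in E4 and kb in E5 or E6 (horizontal axes); filled points are GSK-LSD1 and open points DMSO. All 3 clusters of chromosome 4 have less marked span in GSK-LSD1, and E5 or E6 is larger in GSK-LSD1 in 23 clusters.

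The cluster of Zfp992, Zfp981 and Zfp993 on chromosome 4 (chr4:146449030-146991471) was E3 throughout in GSK-LSD1. In DMSO an unbroken block of 93.4 kb at its left side (chr4:146449001-146542400) was marked, 89.3% of it in E2. It covers Zfp992 and Zfp981 and the start of Zfp993, and none of the 3 had a TSS-type end under either treatment. The neighbouring cluster of 9 genes (chr4:147124882-147849126) had 131.4 kb marked in GSK-LSD1 and 317.8 kb in DMSO. Blocks marked in DMSO alone lay at Zfp984 (42.6 kb), at Zfp985 and Zfp979 (41.8 kb), at Zfp982 (34.8 kb) and at Zfp978 (25.8 kb). Zfp978, Zfp982 and Zfp933 kept E5 at 1 end under both treatments, Zfp991 and Zfp984 had E2 at 1 end under both, and Zfp988, Zfp985, Zfp979 and Zfp534 were E3 at both ends in GSK-LSD1. Over the 3 clusters of this chromosome, 7 blocks of at least 10 kb (276.4 kb) were marked in DMSO alone and 0 in GSK-LSD1 alone. Zfp genes of this kind have near-identical copies, and neither labels nor files say how reads with several matches were treated, which leaves states inside these clusters uncertain.

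Chromosome 13 had the opposite balance, with 6 blocks (141.2 kb) marked in GSK-LSD1 alone and 5 (75.2 kb) in DMSO alone. Chromosome 7 lay the same way, with 9 blocks (164.8 kb) and 7 (129.4 kb). Chromosome 17 lay the way of chromosome 4, with 2 (34.2 kb) and 5 (106.6 kb). The largest cluster of chromosome 13, of 14 genes (chr13:67038594-67553152), had 363.2 kb marked in GSK-LSD1 and 302 kb in DMSO. A TSS-type end was present in 10 of its genes in GSK-LSD1 and in 9 in DMSO, the difference being Zfp458. Zfp712, Zfp457 and Zfp748 were E6 in GSK-LSD1 and E5 in DMSO, and Zfp455, Zfp953, Zfp456, Zfp429, Zfp58 and Zfp87 were E5 in both. Zfp708, Zfp759, Zfp595 and Zfp459 had none. The interior of Zfp748 was 100% marked in GSK-LSD1 and 26.2% in DMSO, and that of Zfp457 30.9% and 100%, so neighbours in 1 cluster went opposite ways.

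The largest cluster of all, 15 genes on chromosome 7 (chr7:29768552-30169775), had no bin in E3 in GSK-LSD1 and 48 kb in E3 in DMSO. These 48 kb were 2 blocks, 30.2 kb at Zfp74 and 17.8 kb at Zfp82. TSS-type states covered 66.8 kb in GSK-LSD1 and 39.6 kb in DMSO, and E4 85.2 and 57.2 kb. Of the 15 genes 14 had a TSS-type end under both treatments, and Zfp790, the one without, had the TSS-type interior given above. Zfp84, Zfp383, Zfp74 and Zfp146 were E6 in GSK-LSD1 and E5 in DMSO. Zfp30, Zfp940, Zfp420, Zfp27, Zfp568, Zfp14, Zfp82, Zfp566, Zfp260 and Zfp382 were E5 in both. ZFP568 is known to repress a placental transcript of Igf2. At the starts whose promoter windows are printed above, the TSS-type run was 4.0 kb in GSK-LSD1 and 1.6 kb in DMSO at Zfp74, and 3.8 and 1.4 kb at Zfp82.

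On chromosome 17 the largest cluster, of 13 genes (chr17:21383707-21994366), had 302.4 kb marked in GSK-LSD1 and 332.4 kb in DMSO. The block of 45 kb marked in DMSO alone at Zfp942 exceeds this difference. TSS-type states covered 58 kb in GSK-LSD1 and 31.6 kb in DMSO. Zfp54, Zfp51 and Zfp53 were E6 in GSK-LSD1 and E5 in DMSO at an end, Zfp983 was E5 and E4, and Zfp677, Zfp52, Zfp760, Zfp820, Zfp942 and Zfp943 were E5 in both. Zfp948, Zfp229 and Zfp995 had no TSS-type end.

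**Figure D5:**
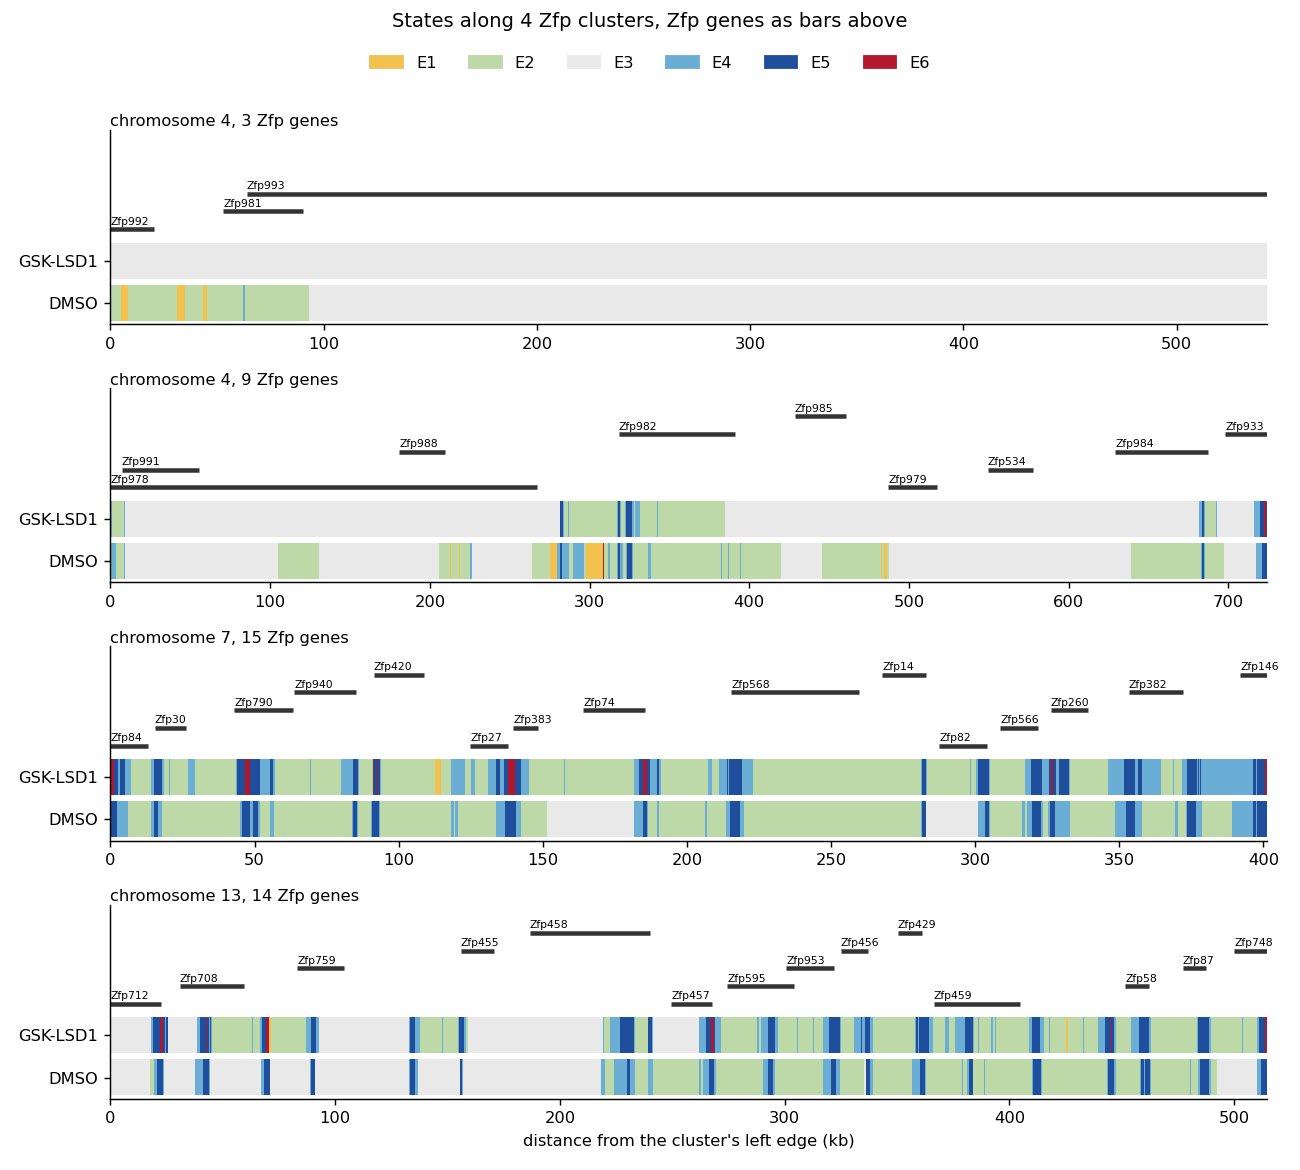
State of every bin (colours) along 4 clusters, from the left edge of each cluster in kb (horizontal axis), with GSK-LSD1 above DMSO and the Zfp genes as bars on top. The first cluster is E3 throughout in GSK-LSD1 and holds the 93.4 kb block in DMSO, and the third has no E3 in GSK-LSD1 and 48 kb of it in DMSO.

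Genes for the proteins that act with KRAB zinc finger proteins were mostly TSS-type at an end, as the clustered genes were, and a larger share of their E5 ends was E6 in GSK-LSD1. A list of 26 such genes held TRIM28 and SETDB1, their partners, HP1 proteins, the HUSH complex and DNA methyltransferases. TSS-type ends were found in 21 of 26 in GSK-LSD1 (80.8%) and in 20 in DMSO (76.9%), the difference being Chd4. Of 19 ends that were E5 in DMSO, 14 were E6 in GSK-LSD1 (73.7%, Wilson 95% interval 51.2 to 88.2, against 49.0% of all protein-coding genes and 29.0% of clustered ends). Trim28 was E6 at its start in GSK-LSD1 and E5 in DMSO, while Setdb1 was E5 in both. TSS-type interior was larger in GSK-LSD1 in 24 of 26 (92.3%, against 54.1% of all protein-coding genes) and smaller in 0, the direction also seen in clustered genes. Atf7ip, which encodes a partner of SETDB1, had 19.6 kb in GSK-LSD1 and 5.6 kb in DMSO.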

How the data were processed

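ChIP-seq of H3K4me1, H3K4me3 and H3K27Ac was done in leukaemia cells treated with GSK-LSD1 or DMSO. The deposited values are state labels (E1 to E6, 1 per segment on a 200 bp grid), not counts. Per the labels, 1 segmentation was deposited for the 3 marks of each treatment. Reads were handled with Bowtie (version not stated) and build mm10 (GRCm38), per the submitters' processing notes. No label or file header names the segmentation tool, its thresholds or the use of the input, and depth is unknown and a mark just under a threshold counts as absent.

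Segments were expanded to bins and compared at the bin of each gene end and in bins more than 1 kb inside both ends (RefSeq genes, GRCm38.p6; strand from its promoter table, for 166 of 190 genes). The calls were a TSS-type end under 1 treatment only, and a marked interior differing by at least 10 percentage points. Shares have Wilson 95% intervals, which cover counting error only, since genes and bins are not replicates. Named were genes with a TSS-type end under 1 treatment only, the 8 largest increases and decreases in marked interior, members of the largest cluster of each chromosome, the 4 clustered and 4 single genes with most TSS-type interior, Zfp981, Zfp992, Zfp993 and Zfp57. Zfp36, the gene pairs nearest the cluster limit, and the genes whose promoter windows are printed were added after their values had been seen. The members and gene lists were chosen with earlier results of these data known. Alternatives covered the TSS-type states, the cluster limit, the end and interior windows, the background state, short segments, shifted ends and the chromosomes. The counting was tested on a copy of the DMSO segmentation into which known state changes had been placed. Python 3.11.15, numpy 2.4.6, pandas 2.3.3 and scipy 1.17.1 were used.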

Additional observations from a re-analysis of the deposited data

How the results depend on the processing

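Over 14 results and 15 settings, 192 alternative values were computed. Of these, 143 lay within the 95% interval of the reported percentage or within 1.5 times the reported count, and 49 did not. The settings for the E6 shares and the count of each bin once were chosen after seeing the data. Depth is unknown, and bins are so many that interior percentages move past their intervals easily.

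If only E5 counted as TSS-type, 54.9% of clustered and 35.4% of single genes had such an end in GSK-LSD1, and 25 clustered genes had it in DMSO alone, because E6 ends are then dropped. When a TSS-type bin up to 1 kb from an end sufficed, 76.8% of clustered genes had one in DMSO, 5 in GSK-LSD1 alone and 0 in DMSO alone. Ends shifted by 200 bp up or down gave 0 and 2 clustered genes in DMSO alone.

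Marked interior is given for GSK-LSD1 and then DMSO. A cluster limit of 50 kb gave 41.7% and 46.5% in clustered and 39.5% and 40.5% in single genes. A limit of 200 kb gave 42.1% in clustered and 38.1% in single genes in GSK-LSD1, and with 36.9% in single genes in DMSO their order turned round. Whole genes gave 46.0% and 50.4% in clustered and 38.7% and 39.5% in single genes. With E2 as background the values were 19.6% and 12.8% in clustered and 17.1% and 10.3% in single genes, and the clustered genes at least 10 points larger and smaller in GSK-LSD1 numbered 60 and 5. Each bin counted once gave 44.5% in clustered genes in GSK-LSD1.

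Without chromosome 4 the marked interior was 63.7% and 61.0% in clustered and 39.6% and 43.7% in single genes. Without chromosome 7 it was 29.6% and 38.4% in clustered genes and 39.3% in single genes in GSK-LSD1, where 37.6% in DMSO is the lower. There 3 clustered genes had a TSS-type end in GSK-LSD1 alone and 0 in DMSO alone, 14 had a larger and 14 a smaller interior, and 28.6% of single E5 ends were E6. Without chromosome 13 the values in GSK-LSD1 were 40.9% in clustered and 33.6% in single genes. Without chromosome 17 they were 41.4% and 46.1% in clustered and 34.7% and 33.5% in single genes. Chromosomes 1 to 19 and X gave 50.3% and 51.6% in clustered and 56.5% and 51.2% in single genes, with 14 clustered genes TSS-type at an end in GSK-LSD1 alone and 4 in DMSO alone. No paired analysis was possible because each treatment has 1 segmentation.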

Other observations

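Zfp57, a single gene of chromosome 17 whose product maintains DNA methylation at imprinted loci, had no TSS-type end under either treatment. Its ends were E4 and E2 in GSK-LSD1 and E2 at both in DMSO. Inside it, TSS-type states covered 2.0 kb in GSK-LSD1 and 1.0 kb in DMSO, and E4 5.4 and 1.4 kb. Zfp36, single on chromosome 7, was E6 at both ends in GSK-LSD1 and E5 at both in DMSO.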
